A study of Mus musculus with 12 samples.

Results

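MJ041, a compound known here only by its code name, was compared with vehicle in wild-type primary mouse hepatocytes. Hepatocytes are the main parenchymal cells of the liver, and primary cells are taken from the animal and placed in culture. The comparison set 6 of the 12 libraries of the series against each other, chosen by their labels. These were 3 libraries of wild-type (WT) cells given MJ041 and 3 of WT cells given dimethyl sulphoxide, the vehicle. The other 6 libraries came from Hnf4a knockout (KO) cells with the same treatments, again 3 per group. They entered the same fit, so the p-values and SE of the WT comparison also use their spread. The labels gave no dose, treatment time, strain, animal age or Cre driver, and did not say whether the replicates came from separate animals or cultures. The p-values below therefore measure only the spread between these libraries, which may be technical. The title of the series presents MJ041 as a candidate ligand in work on HNF4A dysfunction in sepsis, and the question here was which genes it moved in cells with an intact receptor gene.

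HNF4A is a nuclear receptor that binds DNA as a homodimer and keeps hepatocytes in their differentiated state, with genes of lipoprotein assembly, clotting factors, sugar use and drug metabolism among its known targets. Liver cells turn dietary sugar into fat through a pathway that runs from fructose and glucose uptake through glycolysis to citrate, acetyl-CoA and fatty acids, and the sugar-sensing factor ChREBP (Mlxipl) and the sterol-sensing SREBP factors drive its genes. Endotoxin and cytokines instead switch on NF-kB, STAT3 and interferon genes in hepatocytes and in the macrophages, endothelial cells and stellate cells that lie beside them in the liver.

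The 6 WT libraries held between 16804319 and 17902832 counts. Hepatocyte markers were abundant in each of them, and albumin (Alb) stood at 43521, 47194 and 43702 CPM (counts scaled to a common library total) with vehicle and at 56531, 50598 and 44191 CPM with MJ041. Markers of other liver cells were present at low levels that differed between libraries. The summed level of 15 Kupffer cell and macrophage markers was 338, 272 and 550 CPM in vehicle replicates 1, 2 and 3, and 196, 244 and 412 CPM in MJ041 replicates 1, 2 and 3. For 16 endothelial markers the sums were 337, 304 and 488 CPM with vehicle and 194, 211 and 355 CPM with MJ041. For 12 stellate cell and fibroblast markers they were 139, 115 and 153 CPM with vehicle and 73.5, 75.2 and 119 CPM with MJ041. These 12 did not move together, with 8 below 0 and 4 above on the log2 scale. The most abundant, Ecm1, had 1331, 928 and 1439 counts with vehicle and 582, 643 and 955 with MJ041. Reln went the other way, with 131, 224 and 234 counts against 311, 260 and 250. In the sums, MJ041 replicates 1 and 2 were thus the lowest of the 6 libraries in all 3 lists, and MJ041 replicate 3 lay among the vehicle libraries. Of these 43 markers 35 had a log2 fold change below 0 and 0 passed the edgeR test (15 at an unadjusted p below 0.05; 3 by DESeq2, 2 by limma-voom). The macrophage marker Cd163 was at 0 in every WT library, and the stellate markers Lrat and Des were too low to test. Of the 12 lymphocyte and neutrophil markers and 6 red cell markers only Cd79b and Alas2 passed the filter on low counts. In bulk RNA, fewer cells of a type and less RNA per cell cannot be told apart.

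**Figure D1:**
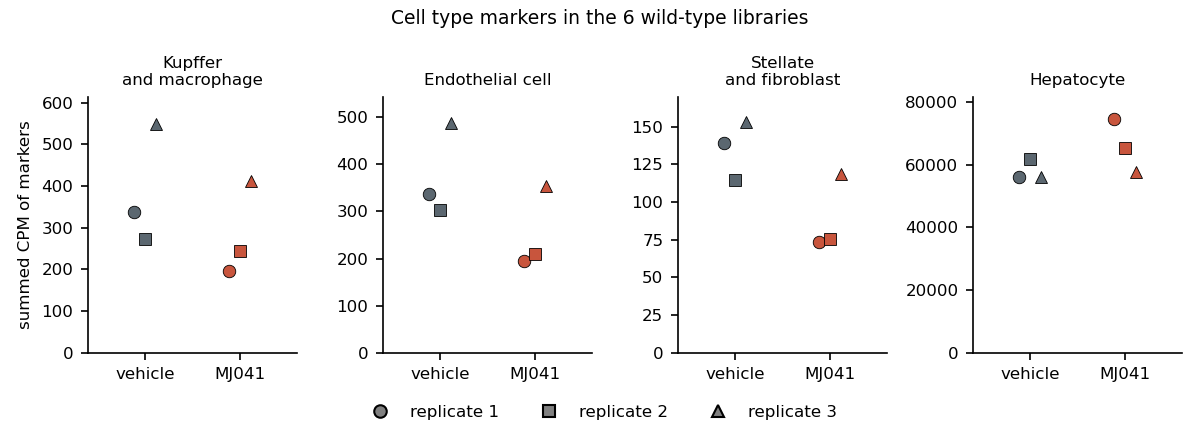
Summed CPM (vertical axes, from 0) of Kupffer cell and macrophage, endothelial, stellate cell and fibroblast, and hepatocyte markers in the 3 vehicle (grey) and 3 MJ041 (red) WT libraries, with 1 symbol per replicate. MJ041 replicates 1 and 2 are the lowest of the 6 libraries in the 3 lists of other cells, and MJ041 replicate 1 is the highest in hepatocyte markers at 74537 CPM.

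With MJ041, some genes that bring sugar into metabolism and turn it into fat rose, and some genes of inflammation and of the interferon response fell, while most members of each list did not pass. Among genes of fructose and carbohydrate use 9 of 43 tested rose, with the fructose enzymes Tkfc and Khk, the glucose transporter Slc2a2 and the regulator Gckr among them, and in the fat synthesis list 4 of 42 rose. In the interferon list 27 of 75 fell, and in the list of chemokines and cytokines 8 of 28 fell. The rises were small, with a median of 1.40-fold over the genes that rose, and the falls were larger, with a median fold of 0.564. These numbers stand against a background in which 2.21% of the 14919 tested genes were called, 1.19% as higher and 1.02% as lower.

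In all, 177 genes rose and 152 fell at an adjusted p below 0.05 in edgeR's quasi-likelihood test, and 20 of the rises and 59 of the falls were at least 2-fold. The smallest adjusted p was 0.0294, so all calls lay close to the threshold. The 3 libraries of each group did not overlap for 174 of the 177 and 148 of the 152, against 22.3% of all tested genes (13.1% with MJ041 higher and 9.22% with it lower). Because the calls were made on the same libraries, this separation was nearly fixed by the selection. The naming rule for the largest changes also required it. The number of calls depended on single libraries. It was 0 without MJ041 replicate 2 or without vehicle replicate 1, 31 without vehicle replicate 3, 49 without MJ041 replicate 1, 574 without vehicle replicate 2 and 2059 without MJ041 replicate 3. It was also 0 without both MJ041 replicates low in markers of other cells, and 0 with the mean level of those markers as a covariate, and this holds for the counts of each gene list below. All 329 genes kept their direction in those fits and in each fit that left out a library, and with the covariate all 329 had an unadjusted p below 0.05. They were picked on these same libraries, so this was nearly fixed in advance and does not test the calls. Their median log2 fold changes were 0.48 for rises and -0.83 for falls. These became 0.40 and -0.67 with the covariate, and 0.31 and -0.52 without both MJ041 replicates. The KO libraries also entered the estimate of spread, and with edgeR on the 6 WT libraries alone the count was 0 (smallest adjusted p 0.178). It was also 0 without KO vehicle replicate 1, KO vehicle replicate 3 or KO MJ041 replicate 3, and between 108 and 210 without each other KO library.

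The libraries kept the same order across most of the called genes. Among the 177 that rose, MJ041 replicate 3 was the treated library nearest to vehicle in 150 and MJ041 replicate 2 was the farthest in 140. Among the 152 that fell, MJ041 replicate 3 was nearest in 125 and MJ041 replicate 2 farthest in 120. On the vehicle side, replicate 2 was nearest to MJ041 in 128 of the rises and 122 of the falls.

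**Figure D2:**
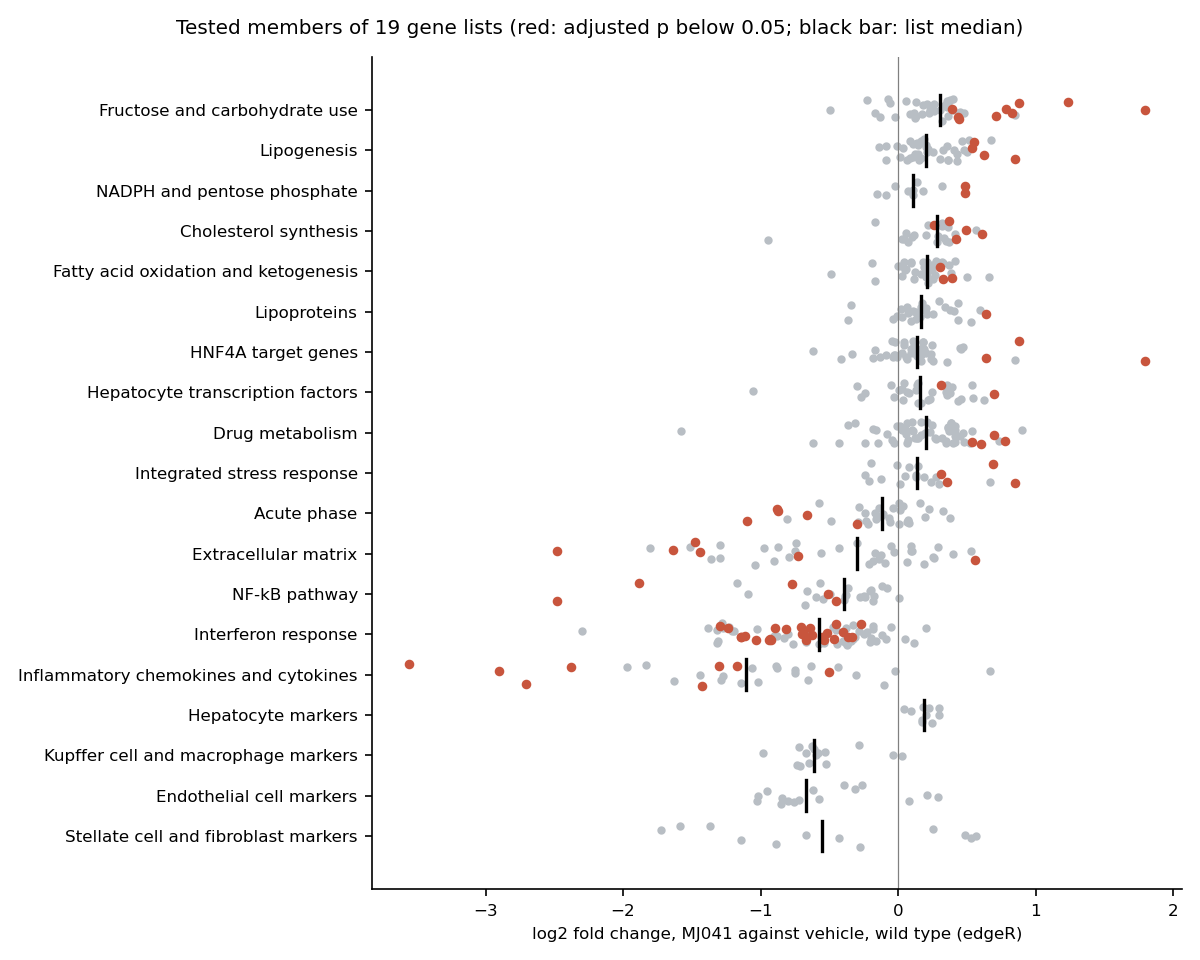
Log2 fold change of MJ041 against vehicle in WT cells (horizontal axis) for the tested members of 19 gene lists, 1 point per gene, with called genes in red and the median of each list as a black bar. Lists of sugar and lipid metabolism lie mostly to the right of 0 and lists of inflammation, interferon response and other cell types mostly to the left, with medians from 0.31 for carbohydrate use to -1.10 for chemokines and cytokines.

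Hnf4a itself, the gene of the receptor, stood at 121, 137 and 112 CPM with vehicle and at 166, 178 and 142 CPM with MJ041. The highest vehicle library was below the lowest MJ041 library. The log2 fold change was 0.39 ± 0.10 (SE, n = 3), which did not pass (adjusted p = 0.0622). It passed in 8 of 25 alternatives, among them DESeq2 (0.39) and the fits without MJ041 replicate 3 (0.48) or vehicle replicate 2 (0.44). In KO cells the transcript was still present, at 61.1, 67.8 and 66.4 CPM with vehicle, a log2 difference from WT of -0.92.

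The steps by which fructose enters metabolism held 4 called genes among 8 tested, and the median of the 8 was 0.45 against 0.03 over all tested genes. Tkfc, the kinase that phosphorylates glyceraldehyde released from fructose, stood at 180.1, 214 and 232 CPM with vehicle and at 354, 412 and 313 CPM with MJ041. All 3 treated libraries lay above all 3 vehicle libraries, and the log2 fold change was 0.78 ± 0.11 (SE, n = 3; adjusted p = 0.0294). Khk, ketohexokinase, which phosphorylates fructose itself, stood at 86.6, 104 and 92.6 CPM against 133, 128 and 123 CPM, again with no overlap. Its log2 fold change was 0.44 ± 0.07 (adjusted p = 0.0294). Slc2a2, the GLUT2 transporter that carries glucose and fructose across the hepatocyte membrane, was at 78.7, 105 and 139 CPM with vehicle and at 185, 242 and 166 CPM with MJ041 (log2 fold change 0.88 ± 0.20, adjusted p = 0.0446).

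Of 18 genes of glucose entry and glycolysis 4 rose. Gckr, a regulator of hepatic glucose phosphorylation, went from 37.6 ± 7.99 to 66.9 ± 13.9 CPM (SD, n = 3), which is 0.83 on the log2 scale. Gpi1, the glucose phosphate isomerase, stood at 452, 634 and 619 CPM with vehicle and at 958, 1043 and 793 CPM with MJ041 (0.71 ± 0.16, adjusted p = 0.0439). Gapdh, often used as a reference gene, was also among the 4, with a log2 fold change of 0.39 ± 0.09 (adjusted p = 0.0452). Not every glycolytic gene moved with them. The liver pyruvate kinase gene Pklr was at 179, 181 and 175 CPM with vehicle and at 260.0, 244 and 179.7 CPM with MJ041, where the third treated library lay within the vehicle range (adjusted p = 0.239).

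On the storage side 1 of 10 glycogen genes rose, the branching enzyme Gbe1 (0.44 ± 0.09, adjusted p = 0.0356). Of 7 gluconeogenic genes 0 passed in edgeR (unadjusted p below 0.05 in 4), nor did any in DESeq2 or limma-voom. Fbp1, the fructose bisphosphatase of that route, had overlapping levels of 141, 146 and 161 CPM with vehicle and 167, 129.6 and 145 CPM with MJ041, and a log2 fold change of -0.02. Pck1, which makes phosphoenolpyruvate on that route, was low and scattered, at 7.22, 17.7 and 27.0 CPM against 24.0, 5.91 and 16.4 CPM. With the marker covariate the median of the whole carbohydrate list was 0.23, and without MJ041 replicates 1 and 2 it was 0.15, beside 0.31 with all libraries.

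The fat synthesis list showed 4 rises and 0 falls among 42 tested genes, with 38 of the 42 above 0 and a median of 0.20. In the same comparison 10 of the 10 tested hepatocyte markers were above 0, with a median of 0.19 and 0 calls in edgeR (unadjusted p below 0.05 in 1; 0 calls by DESeq2 and 0 by limma-voom). Called were the regulator Mlxipl and the enzymes Acly, Acaca and Scd1, which act at separate steps of the route from citrate to monounsaturated fat. Mlxipl, which encodes ChREBP, stood at 99.2, 133 and 127 CPM with vehicle and at 175, 219 and 161 CPM with MJ041, with no overlap. Its log2 fold change was 0.63 ± 0.11 (adjusted p = 0.0317). Acly, which splits citrate into acetyl-CoA, was at 407, 465 and 545 CPM against 629, 789 and 659.8 CPM, so the highest vehicle library lay below the lowest treated one. Acaca, the acetyl-CoA carboxylase that makes malonyl-CoA, was at 84.9, 101 and 111 CPM against 135, 162 and 132 CPM, and its log2 fold change was 0.53 ± 0.12 (adjusted p = 0.0424). Scd1, the desaturase that makes oleic acid, had the largest change of the 4, from 1805, 2583 and 2027 CPM to 4406, 4482 and 2655 CPM (0.85 ± 0.18, adjusted p = 0.0388). MJ041 replicate 3 was far closer to vehicle than its companions for Scd1.

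Other genes of the route did not pass. Fasn, the fatty acid synthase, stood at 161, 173 and 147 CPM with vehicle and at 209, 196 and 169 CPM with MJ041, an overlap of 1 library (0.26 ± 0.08, adjusted p = 0.0938); it is given although the naming rule did not take it. Of 9 genes of triglyceride assembly 0 passed in edgeR (unadjusted p below 0.05 in 3; 1 by DESeq2, 0 by limma-voom), and the most abundant of them, the phosphatidate phosphatase Lpin2, had a log2 fold change of 0.11 ± 0.08. Fat synthesis consumes NADPH, and 2 of 11 genes that supply it rose. They were the malic enzyme Me1, with 154, 182 and 165 CPM against 229.6, 269.9 and 202 CPM (0.48 ± 0.09), and Tkt, the transketolase of the pentose phosphate pathway, with 326, 389 and 372 CPM against 509, 559 and 455 CPM (0.49 ± 0.09). Pgd of the oxidative branch also had no overlap, with 606 ± 25.8 and 755 ± 78.0 CPM (SD, n = 3), but missed the threshold (0.32, adjusted p = 0.0609).

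**Figure D3:**
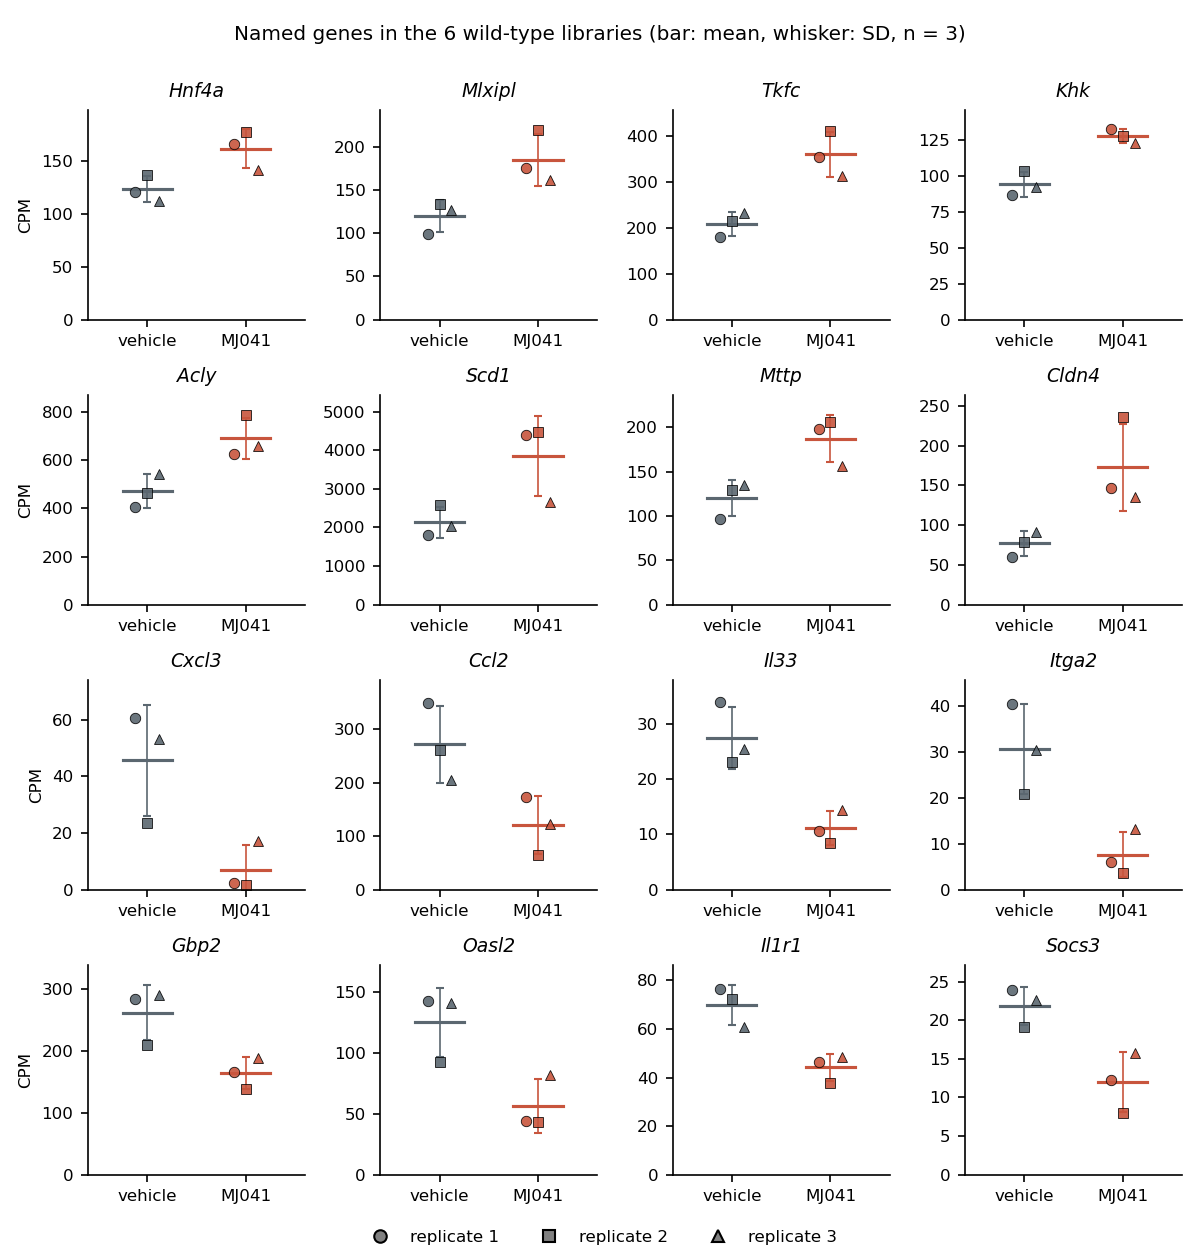
CPM (vertical axes, from 0) of 16 genes in the 3 vehicle (grey) and 3 MJ041 (red) WT libraries, with a symbol per replicate, a bar for the mean and a whisker for the SD. In each panel the treated libraries lie on 1 side of the vehicle libraries, and MJ041 replicate 3 (triangle) is the treated library nearest to vehicle in most panels, as for Scd1 at 2655 CPM.

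Cholesterol synthesis genes rose in 5 of 27 cases, with 25 of 27 above 0 and a median of 0.28. Sqle, the squalene epoxidase, stood at 71.9, 86.0 and 81.1 CPM with vehicle and at 126, 115 and 95.2 CPM with MJ041 (0.49 ± 0.11, adjusted p = 0.0431). Stard4, which carries cholesterol between membranes, rose by 0.61 ± 0.15, the phosphomevalonate kinase Pmvk by 0.42 ± 0.10 and the lanosterol demethylase Cyp51 by 0.37 ± 0.09 on the log2 scale. Genes that burn fat rose as well in 3 of 38 cases, with a median of 0.21. Acsl5, which activates fatty acids as CoA esters, went from 789.8 ± 73.6 to 1037 ± 88.0 CPM (SD, n = 3), Acadvl of mitochondrial beta oxidation from 97.4 ± 2.97 to 122 ± 9.66 CPM, and Hsd17b4 of peroxisomal oxidation from 84.2 ± 4.34 to 104 ± 10.7 CPM. The direction was therefore the same for called genes of fat synthesis and of fat oxidation.

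Mttp, the transfer protein that loads triglyceride onto apolipoprotein B, was the 1 call among 29 lipoprotein genes. It stood at 96.9, 129 and 135 CPM with vehicle and at 199, 206 and 157 CPM with MJ041, with no overlap, and its log2 fold change was 0.64 ± 0.12 (adjusted p = 0.0324). Mttp is also among the 48 known HNF4A target genes tested, of which 3 rose and 0 fell. The glucose genes of that list held 2 of the 3 calls among 6 members, Slc2a2 being 1 of them. The clotting factor, plasma protein, amino acid, and bile acid and drug groups of the list held 0 calls in edgeR among 36 genes (9 at an unadjusted p below 0.05; 3 by DESeq2, 1 by limma-voom). The median over all 48 was 0.13, against 0.03 over all tested genes and 0.19 over the 10 hepatocyte markers. It was 0.07 with the marker covariate and 0.02 without MJ041 replicates 1 and 2.

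Among 32 transcription factors of the hepatocyte 2 rose, both nuclear receptors. Pparg, a lipid-sensing receptor best known from fat cells, stood at 23.3, 29.6 and 19.1 CPM with vehicle and at 45.2, 39.8 and 31.7 CPM with MJ041 (0.70 ± 0.15, adjusted p = 0.0381). Esrra, a receptor that drives mitochondrial genes, was at 45.1, 49.3 and 47.0 CPM against 54.0, 60.6 and 61.1 CPM (0.31 ± 0.07, adjusted p = 0.0381). For both, every treated library exceeded every vehicle library. Zbtb20, a repressor of fetal liver genes, did not pass (0.35, adjusted p = 0.0589).

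Drug metabolism genes rose in 4 of 60 cases, and 0 of 20 genes of the Cyp2 and Cyp3 families passed in edgeR (unadjusted p below 0.05 in 9; 3 by DESeq2, 0 by limma-voom). Htatip2, counted with the genes of the aryl hydrocarbon receptor, stood at 52.8, 63.3 and 49.8 CPM with vehicle and at 104, 104 and 76.4 CPM with MJ041 (0.78 ± 0.11, adjusted p = 0.0294). That group as a whole did not rise, with 3 of its 7 tested genes above 0, 4 below and a median of -0.14. The epoxide hydrolase Ephx1 (0.60), the aldehyde dehydrogenase Aldh1a7 (0.54) and the glutathione transferase Gstm1 (0.70) were the other called genes of drug metabolism. Ephx1 and Gstm1 are exceptions to the separation of groups, because their lowest treated library, replicate 3, fell just under the highest vehicle library, by less than 1 CPM in both genes. Gstm1 has close paralogs, and reads may have been shared among them in the counting. Gclc, which makes the first step of glutathione synthesis, was the 1 called gene of 18 NRF2 targets, at 547, 831 and 557 CPM against 1349, 1537 and 841 CPM (0.95 ± 0.22, adjusted p = 0.0497).

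Of 20 genes of the integrated stress response, whose factor ATF4 drives amino acid supply, 4 rose. Chac1, which degrades glutathione, stood at 33.0, 43.7 and 47.5 CPM with vehicle and at 69.1, 82.4 and 72.0 CPM with MJ041 (0.85 ± 0.13, adjusted p = 0.0294). Phgdh and Psat1, consecutive enzymes of serine synthesis, rose by 0.69 ± 0.15 and 0.31 ± 0.06, and the factor Atf5 by 0.36 ± 0.08 on the log2 scale. Of 20 unfolded protein response genes 0 passed in edgeR (unadjusted p below 0.05 in 2; 1 by DESeq2, 0 by limma-voom). Glud1, glutamate dehydrogenase, was the 1 call among 40 urea cycle and amino acid genes (0.32), and Igfbp2 (0.57) and Stat5b (0.27) were the 2 among 15 genes of growth hormone and IGF1 signalling.

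The largest rises by the naming rule lay outside these pathways. Cldn4, a claudin of tight junctions, stood at 60.5, 79.0 and 91.4 CPM with vehicle and at 147, 236 and 135 CPM with MJ041 (log2 fold change 1.16 ± 0.19, adjusted p = 0.0294). Cldn4 is also 1 of the 8 tested markers of bile duct cells, of which it alone passed. Their summed level was 618, 403 and 556 CPM with vehicle and 316, 412 and 433 CPM with MJ041, and this sum holds Cldn4 itself as well as Spp1, a secreted phosphoprotein, which had 8329, 3985 and 6792 counts with vehicle and 1296, 1446 and 3587 counts with MJ041. The part of bile duct cells in the Cldn4 rise was not tested. Nbn, a subunit of the MRN complex of DNA break repair, was at 6.65, 15.3 and 8.01 CPM against 24.5, 21.9 and 17.6 CPM (1.10 ± 0.23). Myo5c, an unconventional myosin of epithelial cells, was at 7.05, 10.7 and 9.77 CPM against 15.7, 26.4 and 16.7 CPM (1.10 ± 0.18). The other large rises were Ccdc68 (1.27), Klhdc7a (1.2), Tmem246 (1.09), the steroid-reducing enzyme Akr1c14 (1.04), Adamtsl5 (1.03), the homeobox gene Lhx6 (0.98), the transporter Abcc12 (0.97), the ectonucleotidase Entpd2 (0.93) and the tubulin Tubb2b (0.92).

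Chemokines that draw neutrophils led the falls taken by the naming rule. Cxcl3 stood at 60.5, 23.5 and 53.2 CPM with vehicle and at 2.29, 1.48 and 17.1 CPM with MJ041. The groups did not overlap, although vehicle replicate 2 and MJ041 replicate 3 approached each other, and the log2 fold change was -2.70 ± 0.62 (SE, n = 3; adjusted p = 0.0452). Cxcl5 was at 13.5, 6.45 and 8.34 CPM against 0.618, 0.801 and 3.96 CPM (-2.38 ± 0.53, adjusted p = 0.0431). Their neighbour in function Cxcl1 had no overlap either, at 299, 235 and 289 CPM against 129.5, 78.4 and 186 CPM, but did not pass (-1.07, adjusted p = 0.0593). Cxcl2, the last of the 4 tested, had -1.02.

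Among 12 chemokines for monocytes and T cells 3 fell. Ccl2, the main attractant of monocytes, stood at 349, 261 and 206 CPM with vehicle and at 173, 64.7 and 123 CPM with MJ041 (-1.17 ± 0.28, adjusted p = 0.0497). Ccl7, which shares its receptor, was at 34.7, 26.1 and 25.8 CPM against 13.5, 5.85 and 12.8 CPM (-1.42 ± 0.24, adjusted p = 0.0294), and Cxcl16 at 113, 96.8 and 89.7 CPM against 78.5, 58.1 and 75.3 CPM (-0.50). For these 3 genes MJ041 replicate 2, not replicate 1, was the lowest library. Ccl9 was the 1 member of the whole list above 0 and its libraries overlapped (0.67, adjusted p = 0.319).

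Of 12 cytokine genes 3 fell. Il33, an alarmin released by injured cells, stood at 33.9, 23.2 and 25.5 CPM with vehicle and at 10.6, 8.38 and 14.5 CPM with MJ041 (-1.30 ± 0.28, adjusted p = 0.0424). Il6, the chief inducer of the acute phase, rested on few reads, with 41, 23 and 53 counts in the vehicle libraries and 0, 1 and 8 counts in the MJ041 libraries (-3.56 ± 0.65, adjusted p = 0.0317). The granulocyte and macrophage growth factor Csf2 was as sparse, with 74 counts in all 3 vehicle libraries together and 9 in the MJ041 libraries (-2.90 ± 0.45). The median of the 28 tested members of the chemokine and cytokine list was -1.10. It was -0.84 with the marker covariate and -0.66 without MJ041 replicates 1 and 2, and the Kupffer and endothelial sums given above were lowest in the same 2 libraries. Their part in the falls of these genes, which macrophages and endothelial cells also express, was not tested.

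Promoters of 2 of these genes are shown because each holds a kappaB element, the site read by NF-kB. They are the 150 bases before the RefSeq start in the mouse build GRCm38.p6, on the strand of the gene, with letters that match the motif (GGGA, then any 2 bases, then TTCC, on either strand) in capitals. Cxcl3 lies at chr5:90785951-90786100 on the plus strand, where 2 overlapping matches extend the capitals to 11 letters, and Il6 at chr5:30012964-30013113 on the plus strand. The element begins 73 bases before the start in Cxcl3 and 44 bases before it in Il6.
Cxcl3: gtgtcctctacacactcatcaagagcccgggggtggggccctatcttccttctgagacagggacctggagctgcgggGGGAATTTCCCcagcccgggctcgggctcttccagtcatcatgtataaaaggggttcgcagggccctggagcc
Il6: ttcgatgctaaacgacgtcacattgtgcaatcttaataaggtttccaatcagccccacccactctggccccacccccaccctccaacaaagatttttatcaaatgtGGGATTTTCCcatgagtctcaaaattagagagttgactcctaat
In a window from 250 bases before to 50 bases after the start, this motif was found in 1.47% of the 32851 RefSeq promoters. Counted by gene, where a match in any promoter of the gene suffices, it was in 1.73% of the 10824 tested genes with a promoter. It was in 6 of the 18 tested members of the chemokine and cytokine list with a promoter in the table. Of the genes with a promoter, 5 of 106 that fell and 0 of 127 that rose held it. A match describes the letters and is not evidence of binding.

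In the NF-kB pathway itself 5 of 27 genes fell and 0 rose, 26 of the 27 lay below 0, and the median was -0.39. Nfkb1, the precursor of the p50 subunit, stood at 171, 149 and 155 CPM with vehicle and at 125, 94.2 and 129 CPM with MJ041 (-0.45 ± 0.10, adjusted p = 0.0426). Tnfaip3, which encodes the inhibitor A20, was at 127, 104 and 94.4 CPM against 77.3, 43.4 and 69.8 CPM (-0.77), and Nfkbiz, an inducible co-regulator, at 76.0, 77.7 and 59.7 CPM against 56.8, 42.6 and 50.4 CPM (-0.51). In each case all treated libraries were below all vehicle libraries. Traf1, an adaptor of TNF receptors, fell by 1.88 ± 0.33 and the matrix protease Mmp9, with 85 counts over the vehicle libraries and 14 over the treated ones, by 2.48 ± 0.36 on the log2 scale. The list's median was -0.36 with the marker covariate and -0.26 without MJ041 replicates 1 and 2.

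Receptors upstream of NF-kB moved in 2 of 22 cases. Il1r1, the receptor of interleukin 1, stood at 76.5, 72.4 and 60.8 CPM with vehicle and at 46.4, 37.9 and 48.3 CPM with MJ041 (-0.66 ± 0.10, adjusted p = 0.0294), and Tlr3, the endosomal sensor of double-stranded RNA, at 45.0, 36.2 and 50 CPM against 28.1, 28.5 and 31.6 CPM (-0.57). Acute phase genes, the plasma proteins and regulators that hepatocytes induce in inflammation, fell in 5 of 34 cases with a median of -0.11. Besides Il1r1 they were the receptor antagonist Il1rn (132, 97.6 and 139.8 against 66.9, 49.2 and 84.3 CPM, -0.88), the STAT3 feedback inhibitor Socs3 (23.9, 19.1 and 22.7 against 12.2, 7.94 and 15.7 CPM, -0.87), the serum amyloid Saa3 (176, 104 and 111 against 59.7, 43.5 and 79.3 CPM, -1.10) and the serpin Serpina3n. Serpina3n had the smallest of these changes and the least spread, from 258 ± 6.70 to 210.0 ± 15.6 CPM (SD, n = 3; -0.30 ± 0.06). Of 20 complement genes 0 passed in edgeR (unadjusted p below 0.05 in 4), DESeq2 or limma-voom, and F3, tissue factor, was the 1 call of 25 coagulation genes (-0.74 ± 0.12).

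The interferon response list held more calls than any other list examined, 27 of 75, all lower, and 72 of the 75 genes had a log2 fold change below 0. Its median was -0.57. Among 18 GTPases induced by interferon gamma 7 fell. Gbp2 stood at 284, 210.3 and 290.3 CPM with vehicle and at 167, 138 and 188 CPM with MJ041, with no overlap (-0.67 ± 0.12, adjusted p = 0.0324). Gbp7 was at 125, 94.3 and 132 CPM against 71.9, 64.6 and 79.3 CPM (-0.71 ± 0.12), Gbp9 at 46.5, 30.0 and 50.1 CPM against 17.7, 13.1 and 26.5 CPM (-1.14 ± 0.21), and Ifi47 at 50.1, 39.3 and 52.4 CPM against 31.6, 25.9 and 31.9 CPM (-0.67 ± 0.10). These GTPases attack the membranes that enclose bacteria and parasites. The Gbp genes are close paralogs, and how reads that fit several of them were counted is not given in the sources used here.

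Of 37 effectors induced by type I interferon 15 fell. Oasl2, of the oligoadenylate synthetase family, stood at 142, 92.1 and 140.4 CPM with vehicle and at 43.9, 43.4 and 82.0 CPM with MJ041 (-1.15 ± 0.22, adjusted p = 0.0324), and Ifi44 at 185, 145 and 186 CPM against 108, 111 and 132 CPM (-0.56 ± 0.10). Sensors of nucleic acids fell in 2 of 7 cases, with Zbp1 at 246, 198 and 257 CPM against 130.0, 129.6 and 173 CPM (-0.70 ± 0.12). Among 13 transcription factors and kinases of the pathway 3 fell, and Irf5 went from 34.3 ± 6.92 to 18.0 ± 3.15 CPM (SD, n = 3; -0.93 ± 0.15). For the interferon genes given here by library, vehicle replicate 2 was the lowest vehicle library and MJ041 replicate 3 the highest treated one. Schlafen and tripartite motif genes, kept outside the list, were among the largest falls, with Slfn9 at 54.0, 31.6 and 68.4 CPM against 11.6, 12.1 and 28.3 CPM (-1.56 ± 0.31) and Trim30a at 88.1, 50.6 and 91.5 CPM against 19, 18.2 and 44.6 CPM (-1.49 ± 0.31). In antigen presentation 1 of 27 genes fell, the immunoproteasome subunit Psmb9 (-0.60). The interferon median was -0.38 with the marker covariate and -0.31 without MJ041 replicates 1 and 2, and whether macrophage RNA took part in these falls was not tested.

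Promoters of 3 of the interferon-induced genes are shown because each holds the core of the interferon-stimulated response element (ISRE), the site of STAT and IRF complexes. They are again the 150 bases before the RefSeq start in GRCm38.p6 on the strand of the gene, with letters that match the motif (GAAA, then any 2 bases, then GAAA, on either strand) in capitals. Gbp7 lies at chr3:142530186-142530335 on the plus strand, Slfn9 at chr11:82991831-82991980 on the minus strand and Trim30a at chr7:104465194-104465343 on the minus strand. The element begins 53, 45 and 36 bases before the start.
Gbp7: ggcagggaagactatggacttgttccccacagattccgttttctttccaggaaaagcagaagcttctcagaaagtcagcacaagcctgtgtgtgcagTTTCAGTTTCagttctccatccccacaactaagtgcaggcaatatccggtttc
Slfn9: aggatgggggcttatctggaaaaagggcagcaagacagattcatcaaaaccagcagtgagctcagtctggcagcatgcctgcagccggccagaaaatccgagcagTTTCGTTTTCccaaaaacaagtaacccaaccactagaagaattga
Trim30a: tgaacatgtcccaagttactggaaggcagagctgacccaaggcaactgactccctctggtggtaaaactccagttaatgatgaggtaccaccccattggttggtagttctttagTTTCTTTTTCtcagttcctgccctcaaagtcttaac
In the window from 250 bases before to 50 bases after the start, this motif was found in 3.44% of the 32851 promoters and in 3.78% of the 10824 tested genes with a promoter in the table. Of the genes that fell 24 of 106 with a promoter held it, or 22.6%, and of those that rose 1 of 127. Within the interferon list 27 of 51 members with a promoter held it, and 12 of the 20 called ones. The motif of HNF4A, searched as CAAAGTCCA, was in 0.475% of promoters and in 0.647% of the tested genes with a promoter. It was in 3 of the 106 genes that fell (2.83%) and in 0 of the 127 that rose. These counts describe only the letters of the windows searched.

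Growth factor, adhesion and matrix genes also held large falls. Of 8 tested EGFR ligands 1 fell, epiregulin (Ereg), at 9.15, 3.28 and 9 CPM with vehicle and 0.742, 0.554 and 3.13 CPM with MJ041. The groups came within 0.2 CPM of each other, between vehicle replicate 2 and MJ041 replicate 3, and the log2 fold change was -2.26 ± 0.53 (adjusted p = 0.0473). The other ligands did not pass, with Areg at -0.55, Hbegf at -0.14, Tgfa at -0.06, Btc at -0.05, Nrg4 at -0.36, Egf at 0.55 and Nrg1 at 0.59. Errfi1, an intracellular inhibitor of the receptor, fell from 409 ± 34.2 to 317 ± 31.0 CPM (SD, n = 3; -0.37 ± 0.08).

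Of 12 integrin subunits Itga2, which pairs with beta 1 to bind collagen, fell from 40.5, 20.8 and 30.5 CPM to 5.99, 3.69 and 13.3 CPM (-1.99 ± 0.33, adjusted p = 0.0294). Its partner Itgb1 stood at 886 ± 31.4 and 895 ± 57.4 CPM (SD, n = 3), with overlapping libraries. Itgb5 rose by 0.36 ± 0.07, and the other subunits did not pass. Among 17 junction genes Cldn4 and cingulin (Cgn, 0.43 ± 0.10) rose. In the matrix list 5 of 39 fell and 1 rose, and the median was -0.30. The tenascin Tnc, at 24.0, 22.7 and 24.5 CPM with vehicle and 5.31, 4.80 and 16.0 CPM with MJ041 (-1.44 ± 0.33), the laminin Lamb1 (-1.48), the thrombospondin Thbs1 (-0.73), the protease inhibitor Serpinb2 (-1.64) and Mmp9 fell. Fibronectin (Fn1), which hepatocytes themselves secrete into plasma, went the other way, at 896, 1115 and 940.2 CPM against 1519.9, 1636 and 1203 CPM (0.56 ± 0.13, adjusted p = 0.0446). The matrix median was -0.12 with the marker covariate and -0.03 without MJ041 replicates 1 and 2, in which the stellate sums were lowest.

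The remaining large falls were the chromatin protein Hmga2 (41.8, 20.8 and 30.5 against 7.85, 5.6 and 16.8 CPM, -1.62 ± 0.32), the natriuretic peptide clearance receptor Npr3 (-1.57) and the actin-binding protein Marcks (-1.29). Ankrd1, a target of YAP, fell (-0.50 ± 0.11), the keratin Krt8 rose (0.36 ± 0.08), and each was the 1 call in its group, of 11 YAP targets and of 20 actin, tubulin and keratin genes. Of 41 cell cycle genes 1 rose, Ccnd1 (0.36), and of 25 p53 and DNA damage genes 1 rose, Nbn. Immediate early genes, the circadian clock, bile acid genes, pericentral genes and the respiratory chain held 0 calls in edgeR among 103 tested genes (29 at an unadjusted p below 0.05; 10 by DESeq2, 1 by limma-voom). Of 28 ribosomal protein genes 1 passed, Rpl3 (0.34), while all 28 lay above 0 with a median of 0.15 (0.10 with upper-quartile scaling).

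MJ041 was also given to Hnf4a KO cells, whose libraries entered the WT comparison only through the filter, the scaling and the estimate of spread. In KO cells edgeR called 0 of 14919 genes (0%), with 414 at an unadjusted p below 0.05, and DESeq2 and limma-voom called 0 as well. Of the 177 genes that rose in WT, 58 had a log2 fold change above 0 in KO (32.8%, against 52.4% of all tested genes), and their median there was -0.04. Of the 152 that fell, 54 were below 0 in KO (35.5%, against 47.6%), with a median of 0.05. Tkfc stood at 64.0, 60.7 and 67.8 CPM with vehicle and at 61.5, 53 and 56.3 CPM with MJ041 in KO cells (log2 fold change -0.17 ± 0.11). Scd1 had -0.25 ± 0.18, Gbp2 0.09 ± 0.12, Itga2 -0.29 ± 0.30 and Ccl2 0.02 ± 0.27 in KO.

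The difference between the 2 responses was tested directly as an interaction, which subtracts the WT response from the KO response. By edgeR 0 genes passed (0%), the smallest adjusted p was 0.118, and 1980 genes (13.3%) had an unadjusted p below 0.05. DESeq2 called 227 genes and limma-voom 0. Because the WT response enters this difference, the values of genes called in WT describe it and do not test it. For Tkfc the difference was -0.96 ± 0.15, for Mlxipl -0.82 ± 0.16, for Cldn4 -1.37 ± 0.27 and for Ifi47 0.83 ± 0.15 on the log2 scale. Markers of other cells stood at between 2.86 and 3.40 mean log2 CPM in the 6 KO libraries, and at 2.98, 2.72 and 3.55 with vehicle and 1.78, 2.25 and 3.31 with MJ041 in WT, so the 2 treated WT libraries that were low in them had no counterpart in KO.

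**Figure D4:**
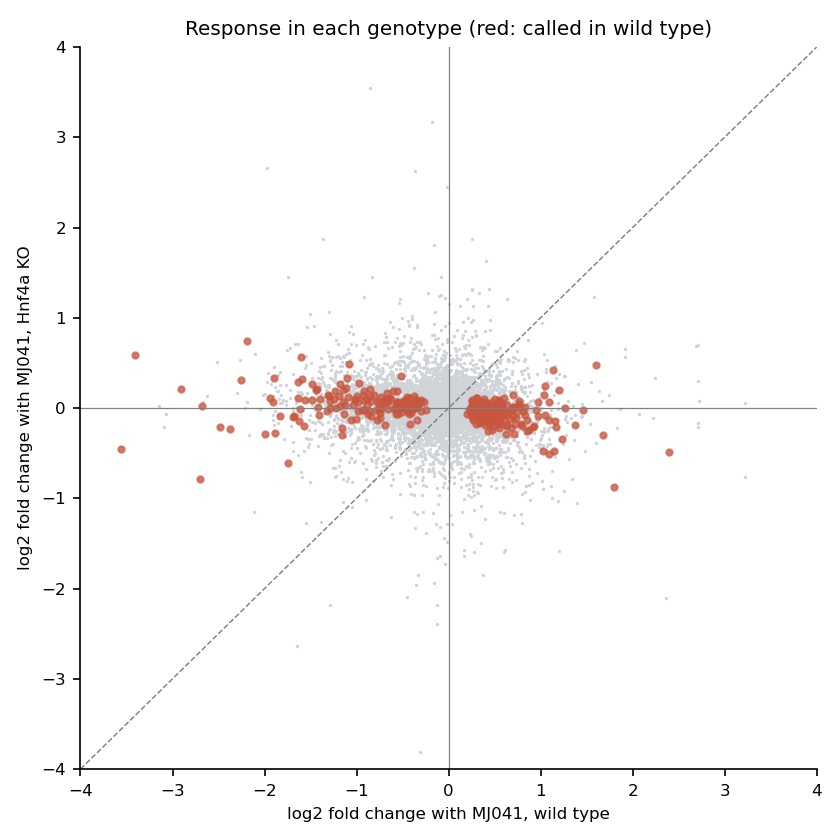
Log2 fold change with MJ041 in WT cells (horizontal axis) and in Hnf4a KO cells (vertical axis), 1 point per tested gene, with the genes called in WT in red and the line of equal change dashed; 4 of 14919 genes lie outside the axes. The called genes spread along the horizontal axis and stay near 0 on the vertical axis, with KO medians of -0.04 for the rises and 0.05 for the falls.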

How the data were processed

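The deposited file holds raw read counts per Ensembl gene for the 12 libraries, to which the authors applied no normalization. Stranded libraries were read on an Element AVITI instrument per the labels' protocols. STAR 2.7.10b, Trimmomatic 0.34, featureCounts, FastQC and DESeq2 are listed in the submitters' processing notes, beside the build mm39. Strand and multimapping settings are not given in the sources used here. Symbols came from an annotation of another build, and 52081 of 55414 genes had one. Promoters came from RefSeq (GRCm38.p6).

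Counts were analysed in R 4.3.3 with edgeR 4.0.16. Genes were kept by filterByExpr (minimum count 10), which left 14919, libraries were scaled by TMM, and the quasi-likelihood fit had a coefficient for each group. It took in all 12 libraries, which totalled between 16740761 and 17902832 counts. P-values were adjusted by Benjamini and Hochberg's method across the 14919 genes, and a gene was called below 0.05. CPM uses TMM-scaled library totals. The SE was taken as the absolute log2 fold change over the square root of the F value. Within groups, pairs of libraries differed by 4.39 to 14.6 chi-square units per degree of freedom, so none was a repeated library. DESeq2 1.42.0, limma 3.58.1 (voom), other scalings and filters, replicate blocks, a covariate of 43 markers of other cells and fits without single libraries were alternatives. The model was tested on simulated data.

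The comparison, the 42 gene lists and the tests were chosen with earlier results of these data known. The naming rule took Hnf4a, the 15 largest rises and 15 largest falls among called genes with at least 5 CPM in the higher group and no overlap, and the called members of each list with the smallest adjusted p (up to 8, or 4 in minor lists); where none passed, abundant members. Pklr, Pck1, Fasn, Cxcl1, Cxcl2, Gapdh and the genes of the closing section were named after their values were seen. A few genes taken by the rule are not reported here.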

Additional observations from a re-analysis of the deposited data

How the results depend on the processing

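The number of genes called in WT cells moved with most choices. It was 301 with DESeq2's size factors, 276 with upper-quartile scaling (105 higher and 171 lower, 38% higher against 53.8%), 275 with a mean of at least 1 CPM, 402 with voom, 906 with DESeq2, 491 with DESeq2 on the 6 WT libraries and 1667 with no low-count filter. It was 0 with the marker covariate (2021 at an unadjusted p below 0.05), 0 without MJ041 replicates 1 and 2 together (747), a fit in which the lone treated library is assumed to vary like the others, and 0 with edgeR on the 6 WT libraries (2561). Leaving out each library in turn gave 0 to 2059, as listed by library in the report. In KO cells 15 genes were called with no low-count filter. The interaction gave 886 with no filter, 227 with DESeq2, 852 without MJ041-treated WT replicate 3 and 7 without vehicle-treated WT replicate 2, in a range of 0 to 852 over libraries left out. Vehicle and MJ041 samples of the same number did not deviate together in every pair. Their correlations of deviations were -0.01, 0.20 and 0.50 in WT and 0.35, 0.46 and 0.04 in KO. Pairs of different numbers ran from -0.53 to 0.45 in WT and from -0.44 to 0.11 in KO. The labels do not say whether the numbers mark pairs, and the main fit did not take them to. With a replicate block within genotype WT calls were 1943 and interaction calls 608, with a block shared by both genotypes WT calls were 649, and with a block on the 6 WT libraries alone they were 600. For the 94 named genes called in WT, 2349 comparisons with alternatives gave 0 changes of direction and 1132 losses of the call. The kept direction is no test, because these genes were picked on the same libraries.

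Low counts limit Il6, Csf2 and Mmp9. They also limit Cxcl5 (10 and 13 counts) and Ereg (12 and 9 counts) in MJ041 replicates 1 and 2. Having only 3 libraries a group, whose order repeats over most calls, limits every call. Intervals are for these libraries, since the dose, time and origin of the replicates are not given in the labels.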

Other observations

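Called genes outside the lists, all named after their values were seen, included further genes of fuel handling. The glycerol 3-phosphate dehydrogenases, which link glycolysis to triglyceride synthesis and to the respiratory chain, rose together in all 3 members. Gpd1 stood at 228, 233 and 268 CPM with vehicle and at 309, 395 and 326 CPM with MJ041 (0.50 ± 0.09, adjusted p = 0.0294 in edgeR), Gpd2 at 68.9, 78.0 and 81.6 CPM against 91.5, 120.3 and 97.9 CPM (0.44 ± 0.09), and Gpd1l at 35.6, 37.4 and 36.5 CPM against 43.9, 53.1 and 42.8 CPM (0.35 ± 0.08). Every treated library exceeded every vehicle library for the 3 genes. The mitochondrial pyruvate carrier subunit Mpc2 (0.33), the carnitine octanoyltransferase Crot (0.51), the acetyl-CoA hydrolase Acot12 (0.60), the glucagon receptor Gcgr (0.60), the AMPK catalytic subunit Prkaa2 (0.43) and the adiponectin receptor Adipor2 (0.25) rose too. Mlxip, which encodes MondoA, the paralog of ChREBP, moved opposite to Mlxipl, from 37.8, 33.3 and 35.4 CPM to 25.6, 24.3 and 29.5 CPM (-0.42 ± 0.08, adjusted p = 0.0324).

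Genes that fell outside the lists included several known to respond to interferon. Rnf213, a large ubiquitin ligase, stood at 1779, 1416 and 1752 CPM with vehicle and at 1117, 1139 and 1375 CPM with MJ041 (-0.45 ± 0.10), and Ly6e (-0.43), Helz2 (-0.43), Pml (-0.42), Parp12 (-0.34), Znfx1 (-0.39), Trim21 (-0.48) and Uba7 (-0.52) fell with it. Other genes that fell were of several kinds. Cd44, the hyaluronan receptor, was at 103, 65.9 and 82.2 CPM against 38.3, 32.9 and 52.9 CPM (-1.02 ± 0.17, adjusted p = 0.0294), Inhba, the activin subunit, at 219.9, 152 and 225 CPM against 82.6, 65.2 and 139 CPM (-1.06 ± 0.21), and the factors Sox4 (-0.66), Runx1 (-0.59) and Hif1a (-0.57) were lower. None of these was called in KO cells, where edgeR called 0 genes (414 at an unadjusted p below 0.05; 0 by DESeq2 and by limma-voom).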
